A study of Mus musculus with 24 samples.

Results

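The cytosolic chaperonin CCT (also called TRiC) is built from 8 different subunits, and the transcripts of all of them were followed here in mouse muscle. The genes are *Tcp1* (the alpha subunit), *Cct2* (beta), *Cct3* (gamma), *Cct4* (delta), *Cct5* (epsilon), *Cct6a* (zeta), *Cct7* (eta) and *Cct8* (theta). They were picked out by name, as the rows of the count table whose mouse symbol is one of these names. They are 8 of the 18669 genes in that table, and the set was chosen with earlier results of these data known. All 8 passed the filter on low counts, which kept the 13754 genes that reached 2 counts in 10 or more of the 24 libraries.

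CCT is a barrel made of a pair of stacked rings. Each ring holds 1 copy of every subunit at a fixed place, so the complex needs all of them. Unfolded proteins are enclosed in the barrel and released folded at the cost of ATP. Actin and tubulin are the best known clients, and prefoldin is the helper that passes them to the chaperonin. CCT is also known for binding mutant huntingtin and limiting its aggregation in cell models. Its genes belong to the constitutively expressed chaperones, while the heat shock response (HSR), driven by the transcription factor HSF1, is best known for HSP genes such as *Hspa1a* and *Hsp90aa1*.

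The libraries came from the quadriceps femoris of 24 mice, 2 in each of 12 groups, all of the hybrid strain B6CBAF1/OlaHsd (CBA x C57BL/6 F1). The genotypes were wild type, R6/2 and Hsf1-/-. R6/2 mice carry a transgene for exon 1 of mutant human *HTT* and model Huntington's disease, and Hsf1-/- mice lack functional *Hsf1* in every tissue. Each genotype had 4 treatments, all followed by muscle collection 4 h later. Control mice were held under isoflurane in a heating pad at 36.9 °C for 21 min, and HS mice received a heat shock at 41.5 °C for 15 min. HSP990 mice were given that HSP90 inhibitor by mouth at 12 mg/kg, and vehicle mice received the solution without it. Wild type and R6/2 mice were 12 weeks old throughout, whereas Hsf1-/- mice were 10 weeks old in the HS experiment and 8 weeks old in the HSP990 experiment. Age therefore cannot be told apart from genotype where Hsf1-/- mice are compared with the others. No label ties mice to litters, and the p-values measure the spread between these mice. The tissue holds several cell types, so fewer cells of a type and less RNA per cell cannot be told apart.

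Library totals ran from 22450177 to 46599238 counts, and the subunits had between 1383 and 13303 counts in a library, so counting error was small beside the spread between mice. Levels are given as CPM, the usual depth-scaled read counts, after TMM scaling. *Hsf1*, the targeted gene, had 52.9 to 68.5 CPM in wild type, 45.3 to 53.7 CPM in R6/2 and 21.1 to 29.0 CPM in Hsf1-/- mice. It was lower in Hsf1-/- than in wild type mice in the control (log2 fold change -1.31, edgeR adjusted p = 4.19e-05) and vehicle (-1.21, adjusted p = 0.000496) groups, and the gene totals do not show which exons the remaining reads cover. The summed level of 4 Y-linked genes was at most 0.088 CPM in the wild type and R6/2 mice of the HS experiment and at least 163 CPM in the other 16 mice. Thus in the HS experiment the genotype of Hsf1-/- mice cannot be told apart from what goes with Y-linked expression. The 7 skeletal muscle markers (*Acta1*, *Ckm* and others, all present) summed to between 176700 and 239400 CPM in wild type and Hsf1-/- mice and to between 38080 and 81810 CPM in R6/2 mice.

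The 8 genes lie on 8 chromosomes. On the mm9 build used for mapping, *Tcp1* (Entrez Gene 21454) spans chr17:13108567-13117933, *Cct2* (12461) chr10:116488054-116500870, *Cct3* (12462) chr3:88101038-88125689 and *Cct4* (12464) chr11:22890519-22903780. *Cct5* (12465) spans chr15:31520555-31531602, *Cct6a* (12466) chr5:130293315-130321696, *Cct7* (12468) chr6:85401499-85418471 and *Cct8* (12469) chr16:87483570-87496114. All are protein coding, and the values are totals over their exons. None had a second genomic match with at most 2% divergence over at least 50% of its transcript. More divergent matches of that length were found for *Cct7* (6.46%), *Cct3* (7.53%), *Cct4* (10.31%) and *Tcp1* (12.02%). Whether reads were shared with them was not tested. Exons of opposite-strand genes overlap *Tcp1* (141 bases of *Mrpl18* and 571 bases of *Acat3*), *Cct7* (214 bases of *1700040I03Rik*) and *Cct8* (193 bases of *Usp16*). The libraries were strand specific, but whether counting used the strand is not given in the sources used here, so reads over those bases cannot be assigned with certainty.

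Because the question was whether the subunits moved together, their promoters were searched for short motifs. RefSeq promoters (GRCm38.p6, 250 bases before to 50 after the start) were matched for 7 of the 8 genes, *Cct2* and *Cct5* having 2 each, which made 9 sequences. HSF1 is known to bind repeats of GAA and TTC. Pairs of these units were searched as TTCNNGAA and GAANNTTC, each of which reads the same on the other strand. TTCNNGAA was found in *Cct5* (first base at position -34 from the start) and *Cct6a* (position 25), while 8.52% of all 32851 mouse promoters of this length hold it. GAANNTTC was found in the second promoter of *Cct2* (position -42), against 7.86% of all promoters. Runs of 3 alternating units at this spacing, which contain both pairs, were in none of the 9, and in 0.31% (starting with GAA) and 0.32% (starting with TTC) of all promoters. The CCAAT box (CCAAT or its reverse ATTGG) occurred in 4 of the 7 genes and 4 of their 9 promoters, against 37.4% of all promoters. It occurred once in *Tcp1*, 2 times each in *Cct3* and *Cct6a* and 3 times in *Cct7*, against 11.5% of promoters with at least 2. GC boxes (GGGCGG or CCGCCC) were in all 7 genes and 8 of their 9 promoters, against 35.7% of all promoters. *Cct3*, *Cct6a* and *Cct7*, the 3 subunits called after HSP990 below, are shown with *Cct5*, which holds the same unit pair as *Cct6a*. Capitals mark unit pairs and CCAAT boxes. The sequences run 5′ to 3′ along the gene and come from chr3:88296885-88297184 (+), chr5:129787106-129787405 (+), chr6:85451255-85451554 (+) and chr15:31601797-31602096 (-), in the order printed.
Cct3: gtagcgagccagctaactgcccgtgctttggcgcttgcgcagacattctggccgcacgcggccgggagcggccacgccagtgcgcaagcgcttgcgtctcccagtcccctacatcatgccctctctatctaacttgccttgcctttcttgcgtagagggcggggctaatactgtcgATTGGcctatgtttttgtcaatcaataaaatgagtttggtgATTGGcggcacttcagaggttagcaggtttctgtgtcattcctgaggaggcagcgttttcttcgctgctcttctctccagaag
Cct6a: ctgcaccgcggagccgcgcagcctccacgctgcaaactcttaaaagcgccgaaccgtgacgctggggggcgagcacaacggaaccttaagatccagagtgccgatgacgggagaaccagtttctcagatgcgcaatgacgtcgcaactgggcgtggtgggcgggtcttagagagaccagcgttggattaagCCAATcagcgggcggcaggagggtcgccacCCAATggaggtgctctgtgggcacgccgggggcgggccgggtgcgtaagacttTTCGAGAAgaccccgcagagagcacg
Cct7: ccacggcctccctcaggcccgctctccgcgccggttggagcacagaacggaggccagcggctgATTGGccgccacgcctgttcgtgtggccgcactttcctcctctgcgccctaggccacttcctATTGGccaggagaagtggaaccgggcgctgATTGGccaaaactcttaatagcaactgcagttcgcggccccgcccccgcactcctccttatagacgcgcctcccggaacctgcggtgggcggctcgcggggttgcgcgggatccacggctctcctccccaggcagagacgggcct
Cct5: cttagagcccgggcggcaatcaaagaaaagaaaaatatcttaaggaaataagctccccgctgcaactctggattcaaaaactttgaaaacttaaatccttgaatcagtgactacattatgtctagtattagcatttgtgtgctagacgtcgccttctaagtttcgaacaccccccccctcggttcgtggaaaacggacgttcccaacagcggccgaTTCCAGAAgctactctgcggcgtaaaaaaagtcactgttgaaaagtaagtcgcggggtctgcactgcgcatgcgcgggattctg
A match of letters describes the sequence and is not a binding site.

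In untreated muscle all 8 subunits were expressed at levels of the same order. Per kb of transcript in the 4 control and vehicle wild type mice, *Cct6a* had 113 ± 3.7 CPM per kb (SD, n = 4), *Cct5* 99.1 ± 11.1 and *Tcp1* 96.5 ± 3.5. *Cct2* followed at 82.2 ± 2.1 CPM per kb, *Cct8* at 64.8 ± 1.3, *Cct7* at 58.2 ± 5.1, *Cct4* at 52.8 ± 1.3 and *Cct3* at 47.3 ± 4.2. The ranges of the 4 mice overlapped between the neighbours *Cct6a* and *Cct5*, *Cct5* and *Tcp1*, *Cct8* and *Cct7*, and *Cct4* and *Cct3*. This order depends on the gene models, since the *Cct6a* transcript used (1599 bases) has no UTR. By coding length, over all 24 libraries, *Tcp1* came first, followed by *Cct5* and *Cct6a*.

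**Figure D1:**
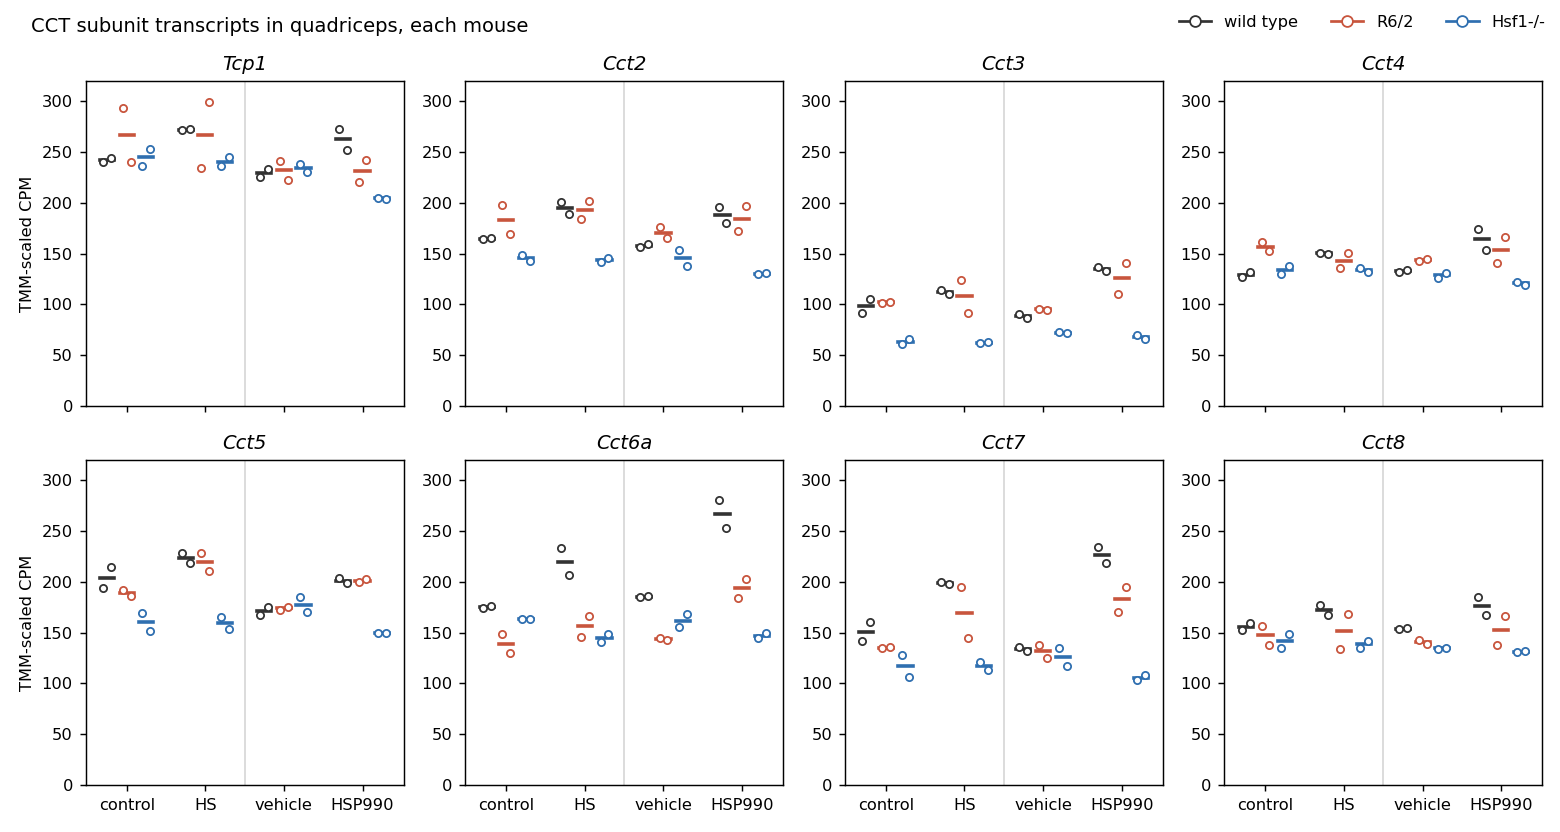
TMM-scaled CPM of each subunit (one panel per gene, axes starting at 0) in control, HS, vehicle and HSP990 mice of the 3 genotypes; open circles are single mice and bars are means of 2. The wild type HSP990 mice lie above the wild type vehicle mice in all 8 panels, and the Hsf1-/- HSP990 mice lie below the Hsf1-/- vehicle mice, a difference that scaling by library size alone turned for 4 of the 8 genes.

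The first comparison asked whether heat shock changed the subunits in wild type muscle. All 8 subunits were higher in both HS mice than in both control mice, by between 9.2% (*Cct5*) and 32% (*Cct7*), but none was called. The summed CCT level was 1284 and 1358 CPM in the control mice and 1575 and 1513 CPM in the HS mice. *Cct7* had 141 and 160 CPM in control and 200 and 198 CPM in HS mice (log2 fold change 0.40 ± 0.13 SE, edgeR adjusted p = 0.166). *Cct6a* had 174 and 176 CPM in control and 233 and 207 CPM in HS mice (0.33 ± 0.10, adjusted p = 0.125). These were the largest of the 8 differences, and the HS mice did not overlap the control mice for either gene. For *Cct2*, *Cct4*, *Cct3*, *Tcp1*, *Cct8* and *Cct5* the log2 fold changes fell between 0.13 and 0.24, with adjusted p between 0.337 and 0.731. Thus 0 of 8 were called by edgeR's quasi-likelihood test, while 2.06% of all genes were, and 0 of 8 by DESeq2. At an unadjusted p under 0.05 there were 4 of 8 (*Cct6a*, *Cct7*, *Cct2*, *Cct4*), against 11.8% of all genes. The groups did not overlap, with HS higher, for 8 of 8 subunits and for 23.1% of all genes. The median log2 fold change was 0.20 for the subunits and -0.01 for all genes, and with scaling by library size alone 7 of 8 subunits were higher while the all-gene median moved to -0.15. Beside these values, the skeletal muscle markers summed to between 181300 and 193100 CPM in control and between 198600 and 229200 CPM in HS mice. The 2 erythroid markers present, of 3 listed, summed to between 7.4 and 9.7 against between 12.5 and 23.0 CPM. Their part in the result was not tested.

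HSP990 gave more calls. In wild type muscle *Cct7*, *Cct6a* and *Cct3* rose, and the other 5 subunits were higher in both HSP990 mice without passing the test. *Cct7* had 136 and 132 CPM in vehicle and 234 and 219 CPM in HSP990 mice (log2 fold change 0.75 ± 0.13 SE, edgeR adjusted p = 0.00627). *Cct6a* had 185 and 186 CPM in vehicle and 280 and 253 CPM in HSP990 mice (0.53 ± 0.10, adjusted p = 0.0131). *Cct3* had 90.5 and 86.7 CPM in vehicle and 136 and 133 CPM in HSP990 mice (0.60 ± 0.13, adjusted p = 0.0295). For each of the 3 genes the mice of the groups were far apart relative to the difference between mice of a group. Thus *Cct7* rose by 68%, *Cct3* by 52% and *Cct6a* by 44%.

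The other subunits showed smaller differences in the same direction. *Cct4* had 132 and 134 CPM in vehicle and 175 and 154 CPM in HSP990 mice (0.30 ± 0.10, edgeR adjusted p = 0.15), and *Cct2* had 156 and 159 against 196 and 180 CPM (0.25 ± 0.10, adjusted p = 0.291). *Cct5* had 168 and 175 against 203 and 199 CPM (0.23 ± 0.09, adjusted p = 0.256). *Cct8* had 153 and 154 against 185.5 and 167 CPM (0.20 ± 0.12, adjusted p = 0.515), and *Tcp1*, named after the t-complex on mouse chromosome 17, had 225 and 234 against 273 and 252 CPM (0.20 ± 0.12, adjusted p = 0.515). In all 5 genes both HSP990 mice were above both vehicle mice. In all, 3 of 8 subunits were called higher while 1.45% of all genes were, and 6 of 8 had an unadjusted p under 0.05 against 13.2% of genes. The groups did not overlap, with HSP990 higher, for 8 of 8 subunits and 24.3% of genes. The median log2 fold change was 0.28 against 0.00 for all genes, rounded from a value just below 0, and all 8 subunits were also higher under the other scalings. The calls rested on few mice. Without wild type vehicle replicate 1 there was 1 call (*Cct7*), without vehicle replicate 2 or HSP990 replicate 1 there were 0, and without HSP990 replicate 2 there were 2 (*Cct7* and *Cct6a*), the lone mouse left being assumed to vary like the other groups. With only the groups compared in the fit, 1 subunit (*Cct7*) was called.

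The same differences can be given as shares of the reads of all 8 subunits, which need no scaling between libraries but are no further support, since these 3 had the largest fold changes. The share of *Cct7* was 10.9% and 10.5% in vehicle and 13.9% and 14.0% in HSP990 wild type mice. The share of *Cct6a* was 14.8% and 14.7% against 16.7% and 16.3%, and that of *Cct3* 7.3% and 6.9% against 8.1% and 8.5%. Cell type markers also differed between these groups. The skeletal muscle markers summed to between 206800 and 212900 CPM in vehicle and between 190300 and 205100 CPM in HSP990 mice. The 5 endothelial markers summed to between 310 and 397 CPM in vehicle and between 478 and 536 CPM in HSP990 mice, and the 3 fibroblast markers to between 517 and 536 against between 724 and 731 CPM. The 6 macrophage markers summed to between 44.3 and 45.9 against between 65.1 and 92.4 CPM, and the 2 nerve sheath markers to between 70.9 and 74.4 against between 88.8 and 96.7 CPM. All markers of these lists were present and none was at 0 in every library. Their part in the subunit changes was not tested.

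**Figure D2:**
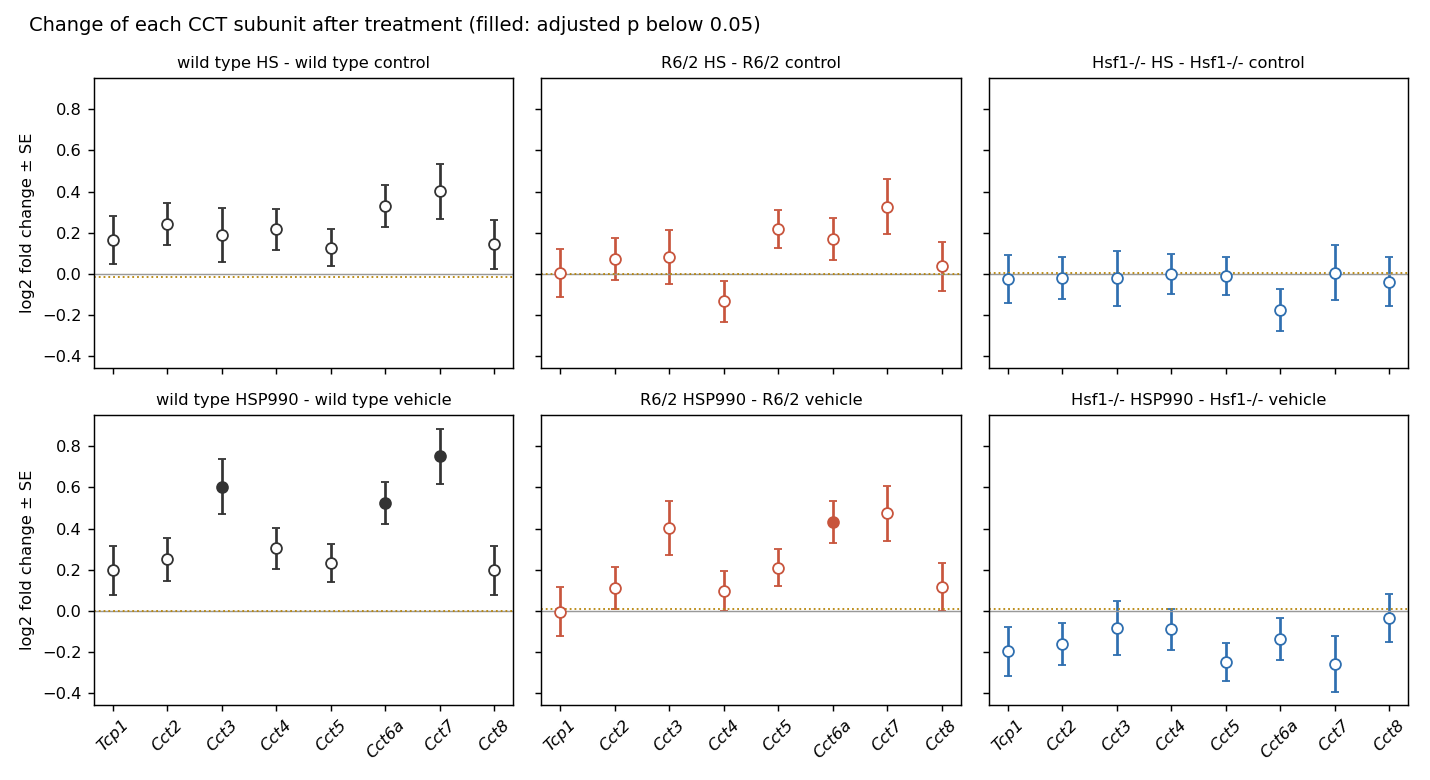
log2 fold change ± SE of each subunit (x axis) from the fit on 2 mice per group, for HS against control (top row) and HSP990 against vehicle (bottom row) in wild type, R6/2 and Hsf1-/- mice; filled points have an adjusted p below 0.05, and the dotted line is the median of all tested genes. *Cct3*, *Cct6a* and *Cct7* are filled in wild type HSP990 mice and *Cct6a* in R6/2 HSP990 mice, while the points of Hsf1-/- HSP990 mice lie below 0, a direction that scaling by library size alone left for 4 of the 8.

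In R6/2 muscle heat shock left no subunit called. The summed CCT level was 1385 and 1253 CPM in control and 1381 and 1434 CPM in HS mice. *Cct7* had 135 and 136 CPM in control and 195 and 145 CPM in HS mice (log2 fold change 0.33 ± 0.13 SE, edgeR adjusted p = 0.508), and *Cct5* had 192 and 186 against 229 and 211 CPM (0.22 ± 0.09, adjusted p = 0.528). *Cct4* went the other way, with 162 and 152 CPM in control and 135 and 151 CPM in HS mice (-0.13 ± 0.10, adjusted p = 0.776). The count was 0 of 8 by edgeR, against 0.0436% of all genes, and 0 by DESeq2, with 2 of 8 (*Cct7*, *Cct5*) against 8.12% of genes at an unadjusted p under 0.05. Groups did not overlap for 2 subunits with HS higher (15.1% of genes) and for *Cct4* with HS lower (14.5% of genes). By fold change 7 of 8 were higher, which became 6 of 8 with the RLE size factors of DESeq2 and 3 of 8 by library size alone.

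The pair of R6/2 HS mice stood apart from each other. Every subunit differed between them by at least 0.115 on the log2 scale, but not in one direction. *Tcp1*, *Cct2*, *Cct4*, *Cct6a* and *Cct8* were higher in replicate 2, and *Cct3*, *Cct5* and *Cct7* in replicate 1. *Tcp1*, for example, had 234 CPM in replicate 1 and 300 CPM in replicate 2, while *Cct3* had 124 and 91.2 CPM. Without R6/2 HS replicate 2, *Cct7* was called (0.53, adjusted p = 0.0377). The 5 endothelial markers summed to between 342 and 510 CPM in the R6/2 HS mice and between 315 and 341 CPM in the R6/2 control mice, and their part was not tested.

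HSP990 raised *Cct6a* in R6/2 muscle. *Cct6a* had 145 and 143 CPM in vehicle and 185 and 203 CPM in HSP990 mice (log2 fold change 0.43 ± 0.10 SE, edgeR adjusted p = 0.0451). *Cct7* had 138 and 125 against 170.5 and 195 CPM (0.48 ± 0.13, adjusted p = 0.113), and *Cct3* had 95.0 and 94.8 against 110 and 141 CPM (0.40 ± 0.13, adjusted p = 0.219). *Cct5* had 172.5 and 176 against 200 and 202.5 CPM (0.21 ± 0.09, adjusted p = 0.457). In these 4 genes both HSP990 mice were above both vehicle mice, against 21.2% of all genes. *Cct2*, *Cct4*, *Cct8* and *Tcp1* had log2 fold changes between 0.00 and 0.12, and their groups overlapped. In all, 1 of 8 subunits was called higher, against 0.473% of genes, and 4 of 8 had an unadjusted p under 0.05 against 9.5% of genes. By fold change 7 of 8 were higher, with a median of 0.16 against 0.01 for all genes, and 7 of 8 were also higher with RLE size factors and by library size alone. The *Cct6a* call was narrow. It was lost without any 1 of the 4 R6/2 vehicle and HSP990 mice (0.36 to 0.50, adjusted p 0.119 to 0.283), with RLE size factors, with library size alone, with no filter on low counts and with only the groups compared. Skeletal muscle markers summed to between 39080 and 46470 CPM in R6/2 vehicle and between 47220 and 81810 CPM in R6/2 HSP990 mice, and the 6 macrophage markers to between 58.5 and 89.0 against between 45.8 and 51.2 CPM. The 5 adipocyte markers summed to between 186.8 and 244.9 CPM in vehicle and between 297.1 and 341.0 CPM in HSP990 mice. The part of these markers was not tested.

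In Hsf1-/- muscle no subunit was called after either treatment. After heat shock the summed CCT level was 1172 and 1171 CPM in control and 1137 and 1144 CPM in HS mice. *Cct7* had 128 and 107 CPM in control and 121.5 and 114 CPM in HS mice (log2 fold change 0.00 ± 0.13 SE, edgeR adjusted p = 1.0). *Cct6a* had 163.5 and 164 against 141 and 149 CPM (-0.18 ± 0.10, adjusted p = 0.707) and was the 1 subunit whose groups did not overlap, with HS lower, as for 21.6% of genes. The other 6 fold changes lay between -0.04 and 0.00, each smaller than its SE. The edgeR count was 0 of 8 (0.00727% of genes), as were the count at an unadjusted p under 0.05 (8.8% of genes) and the DESeq2 count. Beside this, the 5 adipocyte markers summed to between 625 and 741 CPM in control and between 516 and 527 CPM in HS mice, and the 2 nerve sheath markers to between 81.1 and 92.2 against between 63.6 and 73.1 CPM, and their part was not tested.

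After HSP990 the subunits of Hsf1-/- mice were all lower than in the vehicle mice, by a small amount. The summed level was 1200 and 1162 CPM in vehicle and 1055 and 1059 CPM in HSP990 mice. *Cct7* had 135 and 117.5 CPM in vehicle and 103 and 108 CPM in HSP990 mice (log2 fold change -0.26 ± 0.13 SE, edgeR adjusted p = 0.594). *Cct5* had 185 and 171 against 149.5 and 149 CPM (-0.25 ± 0.09, adjusted p = 0.385), and *Tcp1* had 238.5 and 230 against 205 and 204 CPM (-0.20 ± 0.12, adjusted p = 0.643). The groups did not overlap, with HSP990 lower, for 8 of 8 subunits, against 19.4% of all genes. The call count was 0 of 8 by edgeR (0.218% of genes) and 0 by DESeq2, with 1 of 8 (*Cct5*) at an unadjusted p under 0.05 against 9.48% of genes. This direction was not stable to scaling, since the median of -0.15 became 0.00 by library size alone, rounded from just below 0, with 4 subunits higher and 4 lower while the all-gene median moved from 0.01 to 0.16. The skeletal muscle markers summed to between 227600 and 239400 CPM in the Hsf1-/- vehicle mice and between 176700 and 196800 CPM in the Hsf1-/- HSP990 mice. The 5 endothelial markers summed to between 477 and 479 against between 500.1 and 529 CPM. Their part was not tested.

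The design allows the responses of the genotypes to be compared directly, as differences between fold changes. The response of *Cct7* to HSP990 was lower in Hsf1-/- than in wild type mice by 1.01 ± 0.19 SE on the log2 scale (value -1.01, edgeR adjusted p = 0.0187). *Cct6a* differed by -0.66 ± 0.14 (adjusted p = 0.0643), *Cct3* by -0.69 ± 0.19 (adjusted p = 0.237) and *Cct5* by -0.48 ± 0.13 (adjusted p = 0.209). The difference was negative for all 8 subunits under every scaling tried, with a median of -0.45 against 0.00 for all genes. In all, 1 of 8 was called lower, against 0.327% of genes, and 7 of 8 had an unadjusted p under 0.05, against 6.89% of genes, *Cct8* being the exception. DESeq2 called 3 (*Cct7*, *Cct6a*, *Cct5*). The *Cct7* call was lost by library size alone (-0.91), with only the groups compared (-1.01), and without any 1 of wild type vehicle replicates 1 and 2, wild type HSP990 replicate 1, Hsf1-/- vehicle replicate 1 and Hsf1-/- HSP990 replicate 1 (-0.91 to -1.03).

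None of the other differences in response reached the threshold. For HS, Hsf1-/- minus wild type was negative for all 8 subunits, against 48.3% of all genes, with a median of -0.21. *Cct6a* came nearest (-0.51 ± 0.14, edgeR adjusted p = 0.679). The edgeR count was 0 of 8 (0.16% of genes) and the DESeq2 count 0, with 1 of 8 at an unadjusted p under 0.05 against 3.72% of genes. R6/2 minus wild type gave 0 of 8 for HS (0.0727% of genes; DESeq2 0, unadjusted p under 0.05 for *Cct4* only, against 4.86% of genes) and 0 of 8 for HSP990 (0.0% of genes; DESeq2 0, unadjusted 0 against 7.13% of genes). The HSP990 differences were negative for all 8 subunits in R6/2, against 50.1% of all genes. They ran from -0.02 ± 0.13 SE (*Cct5*) to -0.28 ± 0.19 SE (*Cct7*). All 8 were measured in the same mice, so their signs are not separate evidence. In wild type mice, the HSP990 response minus the HS response was between 0.01 and 0.41, *Cct3* being highest (0.41 ± 0.19, adjusted p = 0.313). There edgeR called 0 of 8 (2.38% of genes) and DESeq2 0, with 1 of 8 at an unadjusted p under 0.05 against 14.9% of genes, and 7 of 8 rather than 8 of 8 were positive with RLE size factors. The treatments were given to separate mice with separate controls, and the Y-linked sum was 0 in wild type control and HS mice but at least 165 CPM in wild type vehicle and HSP990 mice. Treatment and whatever accompanies Y-linked expression therefore cannot be told apart in this difference.

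Between untreated mice of different genotype, single subunits were called. *Cct6a* was lower in R6/2 than in wild type mice. It had 148 and 130 CPM in R6/2 and 174 and 176 CPM in wild type control mice (log2 fold change -0.33 ± 0.10 SE, edgeR adjusted p = 0.0431), and 145 and 143 against 185 and 186 CPM in vehicle mice (-0.37 ± 0.10, adjusted p = 0.0187). The groups did not overlap in either experiment. In control mice 1 of 8 was called lower (6.94% of genes), and 2 of 8 had an unadjusted p under 0.05 (26.7% of genes). The groups of 3 subunits did not overlap with R6/2 lower (28.9%) and those of 2 with R6/2 higher (29.5%). In vehicle mice 1 of 8 was called lower (10.5% of genes) and 1 of 8 had an unadjusted p under 0.05 (32.0% of genes), with 2 subunits apart and lower (28.3%) and 3 apart and higher (32.6%). In both experiments these counts lie near or below the all-gene shares, so they do not set the subunits apart from other genes. The other 7 subunits lay between -0.16 and 0.28 in control and between -0.13 and 0.11 in vehicle mice, and *Cct4* came nearest to a call in control mice (0.28 ± 0.10, adjusted p = 0.0747) and was called by DESeq2. The *Cct6a* calls were lost when any 1 mouse of the groups was left out (control -0.24 to -0.43, adjusted p 0.0807 to 0.216, and vehicle -0.36 to -0.38, adjusted p 0.0782 to 0.0884). The call in control mice was also lost with no filter on low counts and with only the groups compared.

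The sign of the R6/2 differences depends on how libraries are scaled. TMM factors were 1.19 to 1.40 in R6/2 and 0.81 to 0.95 in the other libraries. By library size alone *Cct6a* was higher in R6/2 mice, by 0.21 in control and 0.31 in vehicle mice, but the all-gene medians moved to 0.55 and 0.74, so that *Cct6a* lay 0.34 and 0.43 below them (-0.34 and -0.43 relative to the medians). All 8 subunits were then higher and 7 and 8 of them were called. The same difference as a share of the reads of all 8 subunits needs no scaling. It is no further support, since *Cct6a* had the lowest fold change of the 8 in both experiments. The share of *Cct6a* was 10.4% to 11.8% in the 4 untreated R6/2 mice and 13.0% to 14.8% in the 4 untreated wild type mice, without overlap. The skeletal muscle marker sums of R6/2 mice given above were lower than those of wild type mice in both experiments. So were the adipocyte sums (control 274 to 284 against 475 to 1194 CPM, vehicle 187 to 245 against 289 to 598 CPM) and the erythroid sums (control 3.7 to 6.0 against 7.4 to 9.7 CPM, vehicle 2.8 to 5.2 against 6.1 to 10.5 CPM). Macrophage sums were higher in R6/2 mice (control 76.8 to 82.1 against 55.8 to 73.7 CPM, vehicle 58.5 to 89.0 against 44.3 to 45.9 CPM). In control mice the endothelial (315 to 341 against 374 to 396 CPM) and fibroblast (563 to 623 against 700.2 to 813.5 CPM) sums were lower. Their part was not tested.

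*Cct3* was lower in Hsf1-/- than in wild type control mice. It had 61.2 and 65.4 CPM in Hsf1-/- and 91.0 and 105 CPM in wild type mice (log2 fold change -0.63 ± 0.13 SE, edgeR adjusted p = 0.0262). *Cct5* had 169.5 and 152 against 194 and 215 CPM (-0.35 ± 0.09, adjusted p = 0.06) and was called by DESeq2, and *Cct7* had 128 and 107 against 141 and 160 CPM (-0.36 ± 0.13, adjusted p = 0.159). In all, 1 of 8 was called lower (1.17% of genes), 3 of 8 had an unadjusted p under 0.05 (18.3% of genes), and 6 of 8 were apart and lower (28.5% of genes). The call of *Cct3* was lost without any 1 of these 4 mice (-0.52 to -0.74, adjusted p 0.078 to 0.256). In vehicle mice *Cct3* had 72.8 and 71.6 CPM in Hsf1-/- and 90.5 and 86.7 CPM in wild type mice (-0.30 ± 0.13, adjusted p = 0.517). There edgeR called 0 of 8 (0.0872% of genes) and DESeq2 0, with 1 of 8 (*Cct3*) at an unadjusted p under 0.05 against 9.15% of genes, and 5 of 8 were apart and lower (20.9%). The share of *Cct3* among the reads of all 8 subunits was 5.2% to 6.2% in the 4 untreated Hsf1-/- mice and 6.9% to 7.8% in the 4 untreated wild type mice. This is no further support, since *Cct3* had the lowest fold change of the 8 in both experiments. Marker sums differed here too. In control mice the endothelial sum was 422 to 504 CPM in Hsf1-/- against 374 to 396 CPM in wild type mice, the fibroblast sum 592 to 699 against 700.2 to 813.5 CPM and the skeletal muscle sum 199200 to 206500 against 181300 to 193100 CPM. In vehicle mice the endothelial sum was 477 to 479 against 310 to 397 CPM and the skeletal muscle sum 227600 to 239400 against 206800 to 212900 CPM. The part of these markers was not tested. Age differs between these genotypes in both experiments, and Y-linked expression in the HS experiment.

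**Figure D3:**
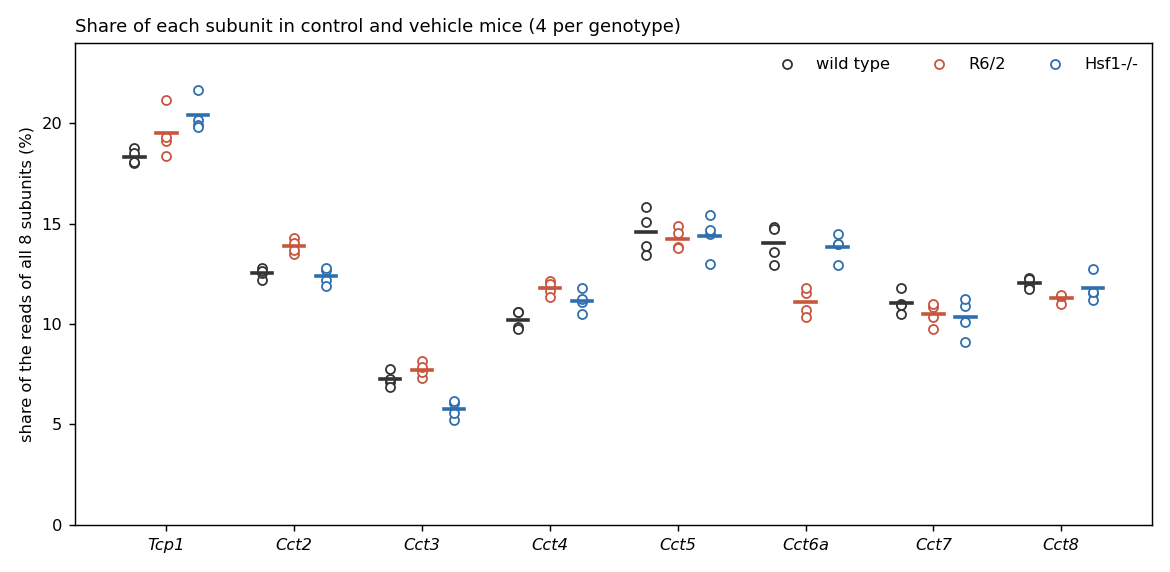
Share of each subunit in the reads of all 8 (percent, axis from 0) in the untreated mice of each genotype; open circles are single mice (2 control and 2 vehicle) and bars their means. The *Cct6a* circles of R6/2 mice (10.4% to 11.8%) lie below those of wild type mice, and the *Cct3* circles of Hsf1-/- mice (5.2% to 6.2%) lie below those of both other genotypes. Each was the subunit with the lowest fold change against wild type mice, so its lower share is no further support.

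Across the 24 libraries the subunits rose and fell together to differing degrees. The correlation of each subunit with the mean of the other 7, on log2(CPM + 0.5), was highest for *Cct7* (Pearson r = 0.92, n = 24 libraries) and *Cct2* (0.89). *Cct3* (0.85), *Cct5* (0.82), *Cct8* (0.82) and *Cct4* (0.77) followed, and *Cct6a* (0.68) and *Tcp1* (0.59) were least like the others. Ranked by this r among 11112 genes of at least 1 CPM, *Cct7* came at place 3, *Cct2* at 18 and *Cct3* at 23. *Cct8* came at place 42, *Cct5* at 44, *Cct4* at 58, *Cct6a* at 119 and *Tcp1* at 200. Many other genes thus followed the remaining subunits more closely than *Cct6a* and *Tcp1* did. All 28 pairs had r above 0, from 0.37 (*Tcp1* and *Cct3*) to 0.89 (*Cct3* and *Cct7*), with a median of 0.71. These libraries share group, scaling and depth, so the values describe them. Without the 2 R6/2 HS libraries the pairs ran from 0.44 to 0.88, with a median of 0.73.

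The median correlation was lower in subsets of the libraries. Among the 16 wild type and R6/2 libraries the 28 pairs ran from 0.13 to 0.89 (median 0.56), and among the 8 Hsf1-/- libraries from -0.42 to 0.94 (median 0.32), where 22 of 28 were above 0. For the difference between the 2 mice of a group (12 groups), the correlation of a subunit with the mean of the other 7 was 0.80 for *Cct2*, 0.70 for *Cct4*, 0.59 for *Cct8* and 0.56 for *Cct6a*. It was 0.43 for *Tcp1*, 0.23 for *Cct5*, 0.20 for *Cct3* and 0.12 for *Cct7*. Over these 12 groups *Cct7* thus followed the others closely between groups and loosely between mice of a group. The low values of *Cct3*, *Cct5* and *Cct7* include the R6/2 HS pair, which held the largest difference of any group (0.44 on the log2 scale). There these 3 were higher in replicate 1 and the other 5 in replicate 2. Whether the looseness holds without that pair was not tested. In 3 of 12 groups (wild type control, wild type HSP990 and R6/2 HSP990) all 8 subunits were higher in the same mouse of the pair, where 47.3% to 50.3% of all genes were.

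The genes most like the mean of the 8 subunits were sought among 11111 other genes of at least 1 CPM. The 10 with the highest Pearson r (0.90 to 0.94, n = 24 libraries) were *Ahsa1*, *Stip1*, *Ahsa2*, *Hsp90ab1*, *Mrps6*, *Hsph1*, *P4ha2*, *Dnaja1*, *Bag3* and *Hspa4l*. Most encode chaperones or co-chaperones, such as the HSP90 co-chaperones *Ahsa1* and *Stip1* and the constitutive HSP90 gene *Hsp90ab1*, and 7 of the 10 belong to the list of 16 cytosolic stress chaperones. The median r over the 11111 genes was 0.00, and 47 genes exceeded 0.8. *Ahsa1* changed by 0.87 on the log2 scale after HSP990 in wild type, 0.97 in R6/2 and -0.08 in Hsf1-/- mice, and *Cct7* by 0.75, 0.48 and -0.26. Most of the 10 had larger fold changes than the subunits. *Dnaja1*, an HSP40 co-chaperone, differed by 3.75 in wild type HSP990 mice.

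**Figure D4:**
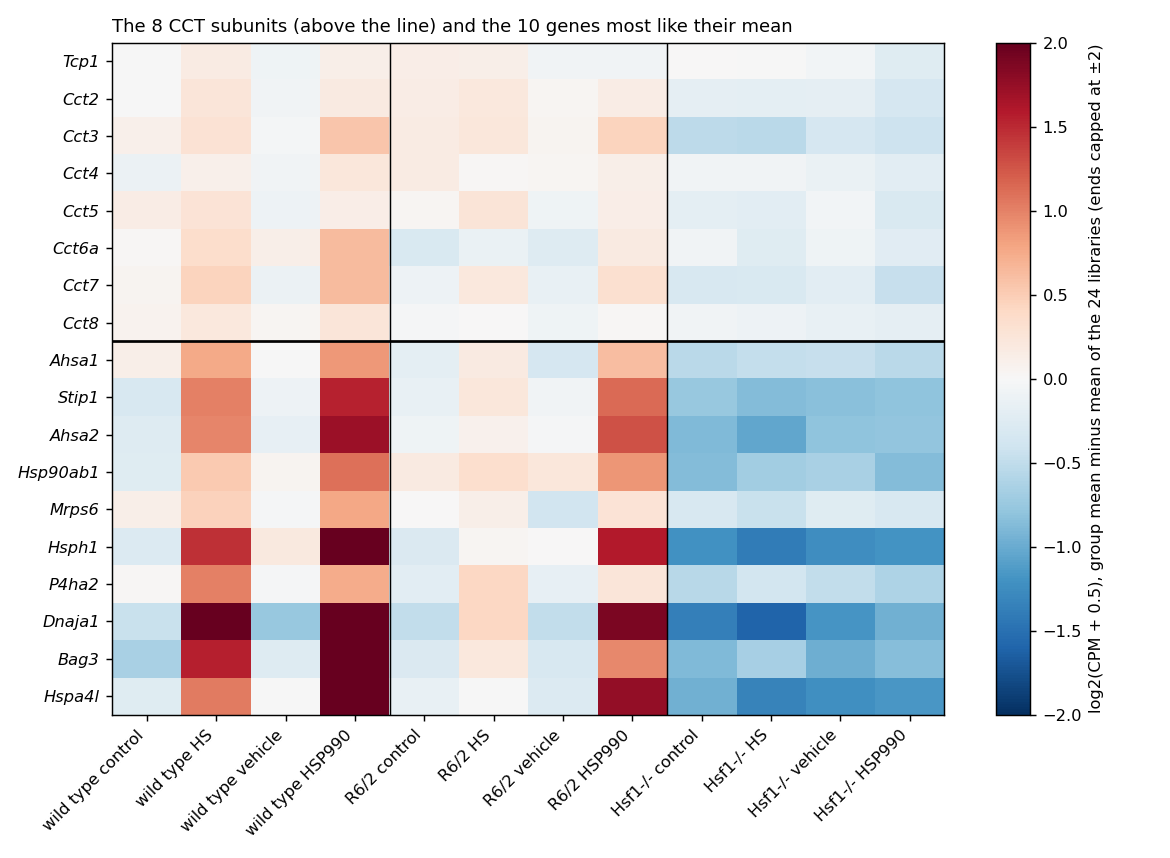
Group means of log2(CPM + 0.5) minus the mean over all 24 libraries, coloured from -2 to 2 with the ends capped, for the 8 subunits (above the line) and the 10 genes most like their mean, with 2 mice per group. The subunits have the pale colours of small differences. The genes below the line, chosen in these same libraries for the likeness of their pattern, have stronger ones.

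The partners of the chaperonin were followed as lists. None of the prefoldin genes, whose product hands over unfolded actin and tubulin, was called. After HSP990 in wild type mice 2 of 6 were higher and 4 lower (median log2 fold change -0.10). There edgeR and DESeq2 called 0 of 6, with 0 at an unadjusted p under 0.05. Of all genes, edgeR called 1.45% higher in this comparison, and 13.2% had an unadjusted p under 0.05. In lists as short as these, a count of 0 calls lies near the first share. *Pfdn2*, the nearest to a call, had 35.0 and 37.3 CPM in vehicle and 30.4 and 30.0 CPM in HSP990 mice (-0.26 ± 0.14 SE, adjusted p = 0.439). Of the CCT cofactors, phosducin-like proteins and others that bind the chaperonin, 4 of 5 were tested, and *Pdcl2* had no count in any library. None of the 4 was called by edgeR or DESeq2 (median -0.03, 0 at an unadjusted p under 0.05). The CCT-like genes gave 0 of 3 (2 at an unadjusted p under 0.05) and the prefoldin-like genes of the URI complex 0 of 3 (1 at an unadjusted p under 0.05, *Pdrg1*), with 0 by DESeq2 in both. The testis paralog *Cct6b* stayed below 1 CPM in every mouse.

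Among the clients, *Actb*, cytoplasmic beta-actin, rose after HSP990 in wild type mice. It had 222 and 229 CPM in vehicle and 289 and 370 CPM in HSP990 mice (log2 fold change 0.55 ± 0.13 SE, edgeR adjusted p = 0.0401), the 1 call among 6 actins (median 0.58, against 0.00 for all genes, of which 1.45% were called higher). *Tubb2a*, a beta-tubulin, rose from 4.4 and 4.1 to 8.6 and 14.5 CPM (1.44 ± 0.29, adjusted p = 0.0163), the 1 call among 13 tubulins (median 0.34), where reads can be split between near-identical family members and DESeq2 called 2. In these HSP990 mice the endothelial, fibroblast, macrophage and nerve sheath sums given above were higher and the skeletal muscle sum lower. Their part in the *Actb* and *Tubb2a* changes was not tested. The WD40 clients gave 0 of 9 and the tubulin cofactors 0 of 6, by edgeR and DESeq2 alike. Both counts were also 0 at an unadjusted p under 0.05, against 13.2% of all genes.

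Both genes of the mitochondrial chaperonin, a relative of CCT, rose with larger fold changes than any CCT subunit, a difference that was not tested. *Hspd1*, which encodes HSP60, had 108 and 106.5 CPM in vehicle and 342 and 280 CPM in HSP990 wild type mice (1.54 ± 0.12, edgeR adjusted p = 1.3e-06), and its lid *Hspe1* had 19.2 and 22.1 against 87.7 and 78.3 CPM (2.01 ± 0.20, adjusted p = 9.16e-06). Both also rose after HS in wild type mice (1.24 and 1.34) and after HSP990 in R6/2 mice (0.76 and 1.12). Of the 16 cytosolic stress chaperones 14 rose after HSP990 and 13 after HS in wild type mice, with medians of 2.25 and 1.96, where 1.45% of all genes were called higher and 2.06% called in either direction. In R6/2 mice 14 rose after HSP990 (0.473% of genes called higher) and 3 after HS (0.0436% called in either direction). After HS in wild type mice edgeR and DESeq2 called none of the prefoldin, cofactor, CCT-like, prefoldin-like, actin, tubulin, WD40 or tubulin cofactor genes. At an unadjusted p under 0.05 there were 1 cofactor (*Pdcl*) and 1 actin, against 11.8% of all genes. In Hsf1-/- mice edgeR and DESeq2 called 0 genes of these 10 lists after HS or HSP990, where edgeR called 0.00727% and 0.218% of all genes. Counts of 0 lie near those shares. There, 1 cofactor, 1 mitochondrial chaperonin gene (*Hspd1*) and 2 actins had an unadjusted p under 0.05 after HS, against 8.8% of all genes. After HSP990, 1 tubulin and 1 stress chaperone (*Hsp90aa1*) did, against 9.48% of all genes.

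**Figure D5:**
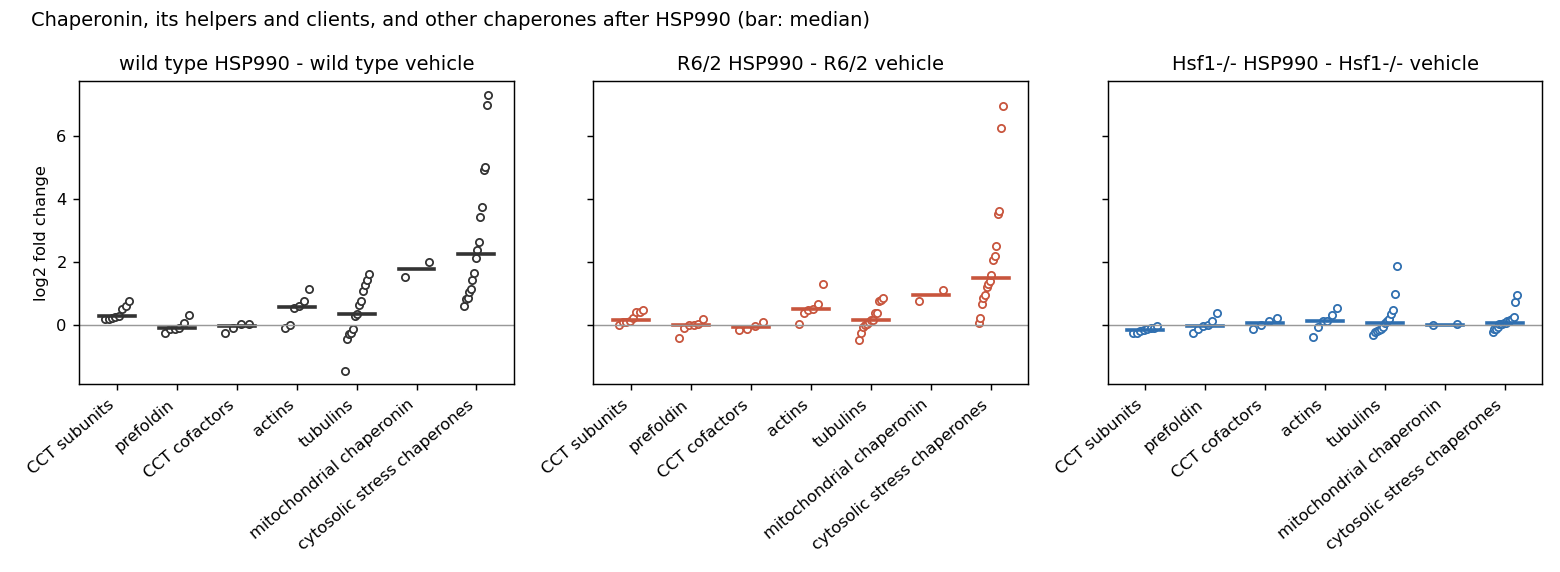
log2 fold change after HSP990 against vehicle of every tested gene (open circles) in 7 lists for wild type, R6/2 and Hsf1-/- mice (2 mice per group); bars are list medians. In wild type mice the 8 CCT subunits lie between 0.20 and 0.75, between the prefoldin genes (median -0.10) and the mitochondrial and stress chaperones, whose medians are 1.77 and 2.25.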

How the data were processed

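RNA from 24 quadriceps muscles was polyA selected and sequenced as strand-specific paired-end libraries. The authors mapped reads with Bowtie to mm9, and the submitters' processing notes also list DESeq2. The deposited table holds raw counts per gene (Entrez Gene identifiers), and the counting program and annotation are not given in the sources used here. Of 18669 genes, 18594 were matched to a RefSeq symbol and 18278 to mm9 coordinates. Groups were taken from the sample labels.

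From these counts, edgeR 4.0.16 (R 4.3.3) was fitted by quasi-likelihood to all 12 groups with TMM scaling, on genes reaching 2 counts in 10 or more libraries, leaving 12 residual degrees of freedom. For 15 contrasts p-values were adjusted by Benjamini-Hochberg over 13754 genes and called under 0.05. CPM are TMM scaled, and correlations used log2(CPM + 0.5). Alternatives were RLE size factors, library size alone, no filter, edgeR's filterByExpr, a replicate block, DESeq2 1.42.0, only the groups compared, and each of 24 mice left out. TMM without the 20 highest genes was added after seeing the data, as was coding length in place of transcript length. Copies were sought with minimap2 2.31-r1302. The edgeR procedure was tested on simulated counts. The changes planted there were larger than any change of a subunit after treatment, so the test does not cover changes of their size.

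The text names the 8 subunits, *Hsf1*, the genes of each list with the largest called change (or smallest p), and the 10 genes most like the subunits. The members and lists were chosen with earlier results of these data known. Mice of a group differed by more than sampling noise (chi-square per degree of freedom 19.42 to 110.8). The number of mice limits precision more than depth does.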

Additional observations from a re-analysis of the deposited data

Results flagged for a closer look

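The response of *Cct7* to HSP990 differed between genotypes by the test of the difference itself. The log2 fold change in Hsf1-/- mice minus that in wild type mice was -1.01 ± 0.19 SE (edgeR adjusted p = 0.0187). *Cct7* was higher in both wild type HSP990 mice than in both vehicle mice and lower in both Hsf1-/- HSP990 mice than in both vehicle mice, with 2 mice in each group. As given above, the call was lost by library size alone, with only the groups compared and without any 1 of several mice. The Hsf1-/- mice were 8 weeks old and the wild type mice 12 weeks, so age cannot be told apart from genotype here.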

How the results depend on the processing

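Over the 15 comparisons, 159 counts of called subunits under an alternative stayed within 1.5 times the reported count and 41 did not. Comparisons with a reported count of 0 are included, where an alternative can only keep the 0 or add calls. The split therefore does not measure how stable the reported calls were, and the counts below are those that moved. With 1 mouse left out the count ran from 0 to 2 for wild type HSP990 (reported 3), from 0 to 1 for R6/2 HS (reported 0) and for the Hsf1-/- minus wild type HSP990 response (reported 1), and was 0 for R6/2 HSP990, for R6/2 minus wild type in control and vehicle mice and for Hsf1-/- minus wild type control (each reported 1). With only the groups compared it was 1 for wild type HSP990 and 0 for R6/2 HSP990, R6/2 minus wild type control and the Hsf1-/- minus wild type HSP990 response. RLE size factors and library size alone gave 0 for R6/2 HSP990, and library size alone gave 7 and 8 for R6/2 minus wild type in control and vehicle mice and 0 for the Hsf1-/- minus wild type HSP990 response. Without the filter, R6/2 HSP990 and R6/2 minus wild type control gave 0. DESeq2 gave 2 for R6/2 minus wild type control, 2 for Hsf1-/- minus wild type control and 3 for the Hsf1-/- minus wild type HSP990 response. Beyond fewer samples and the scaling itself, the cause of these changes was not tested.

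For single subunits named with their values, signs turned in R6/2 minus wild type. Library size alone gave, in control mice, 0.43 for *Cct5*, 0.21 for *Cct6a*, 0.39 for *Cct7* and 0.46 for *Cct8*, and in vehicle mice 0.31 for *Cct6a*, 0.64 for *Cct7* and 0.54 for *Cct8*. In control mice leaving out 1 mouse gave -0.017 (without R6/2 replicate 1) to 0.27 for *Tcp1*, -0.050 (without wild type replicate 1) to 0.16 for *Cct3* and -0.18 to 0.0089 (without R6/2 replicate 2) for *Cct8*. In vehicle mice it gave -0.044 (without R6/2 replicate 1; -0.011 without wild type replicate 1) to 0.074 for *Tcp1*, -0.0077 (without wild type replicate 1) to 0.054 for *Cct5* and -0.099 to 0.035 (without R6/2 replicate 2) for *Cct7*. *Tcp1* was -0.0051 with only the groups compared and -0.00055 by TMM without the 20 highest genes, an alternative chosen after seeing the data.

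Replicate numbers did not pair the mice: between groups, the correlations of same-numbered deviations over 66 pairs of groups ran from -0.333 to 0.346 (median -0.02), with 10 over 0.1. With the replicate block the count was 0 for R6/2 HSP990 and for R6/2 minus wild type control, and the block changed no other count of calls beyond 1.5 times.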

Other observations

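Clients and partners of the chaperonin also differed between untreated mice of different genotype. In R6/2 control mice *Acta1*, skeletal muscle actin, had 7770 and 14170 CPM against 49500 and 59490 CPM in wild type control mice (log2 fold change -2.31 ± 0.31 SE, edgeR adjusted p = 0.00034), and 3 of 6 actins and 3 of 13 tubulins were called lower, against 6.94% of all genes. The tubulins were *Tuba8* (-0.83), *Tuba4a* (-0.58) and *Tubg1* (-0.47). Whether their reads were shared with similar family members was not tested. These 3 tubulins were also lower in the vehicle mice (-1.43, -0.62 and -0.61), where 10.5% of all genes were called lower. By library size alone the median of the actins in control mice moved from -0.38 to 0.16 and that of the tubulins from -0.34 to 0.20, while the median of all genes moved to 0.55.

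In Hsf1-/- control mice *Tbcb*, a cofactor that acts on tubulin after CCT, had 11.5 and 14.3 CPM against 23.4 and 28.5 CPM in wild type mice (-1.02 ± 0.17 SE, edgeR adjusted p = 0.00875). Of the 16 cytosolic stress chaperones 5 were called lower in Hsf1-/- control mice (1.17% of all genes) and 3 in vehicle mice (0.0872% of all genes called in either direction), *Hsph1*, an HSP110 chaperone, being called in both (-0.93, adjusted p = 0.0203, and -1.45, adjusted p = 0.00171).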
